A study of Mus musculus with 4 samples.

Results

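The genes described here write, copy and remove DNA methylation in mouse embryonic stem (mES) cells. They are the DNA methyltransferase genes Dnmt1, Dnmt3a and Dnmt3b, the cofactor genes Dnmt3l, Uhrf1 and Hells, the TET dioxygenase genes Tet1, Tet2 and Tet3, and the thymine DNA glycosylase gene Tdg. Of these 10 genes, 9 had at least 1 probe set annotated to that symbol alone, and together they had 23 of the 45037 probe sets on the arrays. Tdg had none, since its 3 probe sets also carry the symbols of its pseudogenes, and it is not measured here. The members were named by function and not by how they changed, but with earlier results of these arrays known, among them that the probe sets of Tet1 disagree.

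RNA was measured on 4 Affymetrix arrays of E14 cells, a mES cell line, kept in serum with the cytokine LIF. Cells of 2 arrays carried a pSuper.puro plasmid that expresses a short hairpin RNA (shRNA) against Zfp322a (Zfp322a RNAi), and cells of the other 2 arrays carried pSuper.puro as a mock knock-down (control RNAi). Plasmids were delivered with Lipofectamine, puromycin was applied for 3 days according to the labels, and each array holds a transfected population, not a clone. Zfp322a codes for a zinc finger factor of mES cells. The question here is how these genes responded when its mRNA was lowered. Neither the labels nor the methods say which of 2 designed hairpins the arrays used. The target sequences of 19 bases in Zfp322a, a gene on chromosome 13, are shown because they define the treatment.
Zfp322a shRNA-1: acagaggagctccattata
Zfp322a shRNA-2: acttagcacgaatgtgtga

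DNA methylation in mammals sits mostly on cytosines followed by guanine (CpG sites). DNMT3A and DNMT3B place new methyl groups, with DNMT3L as a cofactor that has no catalytic activity of its own. After replication UHRF1 recognises sites methylated on the old strand only and brings in DNMT1, which copies the mark to the new strand, and HELLS is a chromatin remodeller needed for methylation of repeats. TET1, TET2 and TET3 oxidise methylated cytosine, and TDG excises the most oxidised forms, after which base excision repair restores the unmethylated base. In mES cells TET1 and TET2 are the main TET enzymes. Arrays measure mRNA only, so that neither the proteins nor methylation itself was measured, and in bulk RNA fewer cells with a transcript and less of it per cell cannot be told apart.

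The promoters of the de novo methylation genes are shown because these genes changed in opposite directions on the arrays. The windows run from 250 bases before to 50 after an annotated start, are taken from RefSeq (GRCm38.p6) and are written along the gene's strand, with CpG sites in capitals. Dnmt3a has 3 annotated starts, of which the upstream one (chr12:3806730-3807029) and the downstream one (chr12:3891494-3891793), both on the plus strand, are given. The others are Dnmt3b (chr2:153649199-153649498, plus strand) and the upstream one of 3 starts of Dnmt3l (chr10:78042037-78042336, plus strand).
Dnmt3a upstream start: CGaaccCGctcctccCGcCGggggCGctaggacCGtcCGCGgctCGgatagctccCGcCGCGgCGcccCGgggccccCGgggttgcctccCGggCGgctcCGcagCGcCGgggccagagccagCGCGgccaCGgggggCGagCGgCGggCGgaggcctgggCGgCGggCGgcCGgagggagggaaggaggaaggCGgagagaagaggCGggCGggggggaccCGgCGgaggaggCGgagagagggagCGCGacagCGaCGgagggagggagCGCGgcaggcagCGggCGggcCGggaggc
Dnmt3a downstream start: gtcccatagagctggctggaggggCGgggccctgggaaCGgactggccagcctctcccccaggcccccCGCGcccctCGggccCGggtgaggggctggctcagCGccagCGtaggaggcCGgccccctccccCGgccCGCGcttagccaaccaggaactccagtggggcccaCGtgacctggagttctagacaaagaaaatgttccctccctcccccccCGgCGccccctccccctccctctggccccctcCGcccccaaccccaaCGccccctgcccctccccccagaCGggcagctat
Dnmt3b: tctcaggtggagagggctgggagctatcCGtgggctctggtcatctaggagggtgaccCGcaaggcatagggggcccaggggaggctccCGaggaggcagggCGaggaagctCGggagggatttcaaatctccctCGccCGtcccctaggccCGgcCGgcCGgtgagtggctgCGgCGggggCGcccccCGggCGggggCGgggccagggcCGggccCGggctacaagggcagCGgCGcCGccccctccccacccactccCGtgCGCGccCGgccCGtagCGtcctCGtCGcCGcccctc
Dnmt3l upstream start: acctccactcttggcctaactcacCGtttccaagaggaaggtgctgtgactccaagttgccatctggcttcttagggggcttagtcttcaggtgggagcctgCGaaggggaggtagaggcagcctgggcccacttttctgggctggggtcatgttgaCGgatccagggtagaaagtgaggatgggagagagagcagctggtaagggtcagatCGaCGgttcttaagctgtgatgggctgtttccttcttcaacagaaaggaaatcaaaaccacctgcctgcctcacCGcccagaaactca
The upstream window of Dnmt3a held 46 CpG sites, and only 1.65% of the 32851 promoter windows in the table held as many. Its downstream window held 18 and that of Dnmt3b 30, whereas the window of Dnmt3l held 6, where the median window held 7. Among all 17 windows of the 10 genes, Tet2 had the most CpG sites (57), Tet1 had 17, and the start of Dnmt1 farthest upstream had the fewest (2). The letters TTCCCGC, as found in sites of E2F cell-cycle factors, occurred once on either strand in a window of Uhrf1 and once in that of Hells, and in 4.60% of all windows. These are descriptions of sequence, and binding was not measured here.

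The targeted gene was examined first. The brighter of its 2 probe sets read 7.53 and 7.13 on the Zfp322a RNAi arrays, against 8.75 and 8.84 on the control RNAi arrays, on the log2 scale of the deposited values. The mRNA was left at 36.2% of control on this probe set and at 27.4% on the other (limma over all probe sets, adjusted p = 0.0022 and 9.35e-04). The arrays had medians between 6.07 and 6.11, and correlated at 0.998 within each group and at 0.989 to 0.990 between groups. Marker genes were counted by brightest probe set over all genes (limma, adjusted p under 0.05, 28.4% of all genes called). Of 10 ES cell markers 2 were lower in Zfp322a RNAi (Tdgf1 and Esrrb), 0 were higher and 8 did not pass. Among these 8 were Pou5f1 (log2 change -0.055), Nanog (-0.025), Sox2 (0.015) and Zfp42 (0.06). The list averaged 12.2 on both Zfp322a RNAi arrays and 12.4 on both control RNAi arrays. Of 10 endoderm markers 6 were higher and 1 lower, led by Gata6 (log2 change 1.42), with list means of 6.45 to 6.46 on Zfp322a RNAi arrays and 6.13 to 6.15 on control RNAi arrays, and 5 of the 10 lay under the median level of all probe sets. Fibroblast and feeder markers were mostly dim, with 7 of 10 under the median level of all probe sets, Col1a1, Col1a2 and Col3a1 among them, and 1 (Thy1) was lower. Acta2, Thy1 and Fn1 lay above that level. Fn1 was bright, at 11.66 and 11.72 in Zfp322a RNAi and 11.86 and 11.91 in control RNAi, and did not pass the test. What part these shifts have in the values below was not tested.

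Zfp322a RNAi went with changes in both directions within this group of genes. Of the 23 probe sets, 7 were higher, 6 were lower and 10 did not pass the test (limma over all probe sets, adjusted p under 0.05), which is 56.5% called where 20.1% of all probe sets were called (10.6% higher, 9.47% lower). These shares are not like for like. Most of the 23 were bright, from percentile 40 of mean level (Tet3) to 98.7 (Hells), and several share a gene. A share over probe sets of like level was not computed. Counted once per gene by its brightest probe set, 4 of 9 genes were higher (Dnmt3a, Hells, Tet1, Tet2), 3 were lower (Dnmt3b, Dnmt3l, Uhrf1) and 2 did not pass (Dnmt1, Tet3), against 28.4% of all 18193 genes called (14% higher, 14.4% lower). This count depends on the probe set taken. By the mean or the median of all probe sets of a gene, taken on each array, 1 gene was higher (Dnmt3a). Then 4 were lower (Dnmt3b, Dnmt3l, Uhrf1 and Tet1), while Hells and Tet2 did not pass. The share of all genes called by these summaries was not computed. The changes were modest. By the fold limit of 1.5 given in the methods, applied without a test, 2 of 23 probe sets changed, both lower, beside 7.31% of all probe sets. The median change of the 23 probe sets was -0.10 on the log2 scale, and that of all probe sets -0.03. For 21 of the 23 the groups were separate, where 57.5% of all probe sets did not overlap. Below, a change is the log2 difference of Zfp322a RNAi minus control RNAi with its standard error from limma (n = 2 arrays per group), and p-values are adjusted over all probe sets. With the replicate number as a block, 0 of the 23 probe sets passed an adjusted p of 0.05 in limma. The share of all probe sets that passed with the block was not computed. Without any 1 array, which leaves 1 array in its group, the calls did not hold, for these genes or for any other probe set. No called probe set of the 23 changed direction then. Whether replicate arrays stand for separate cultures is not in the labels, and the spread behind these p-values may therefore be technical.

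**Figure D1:**
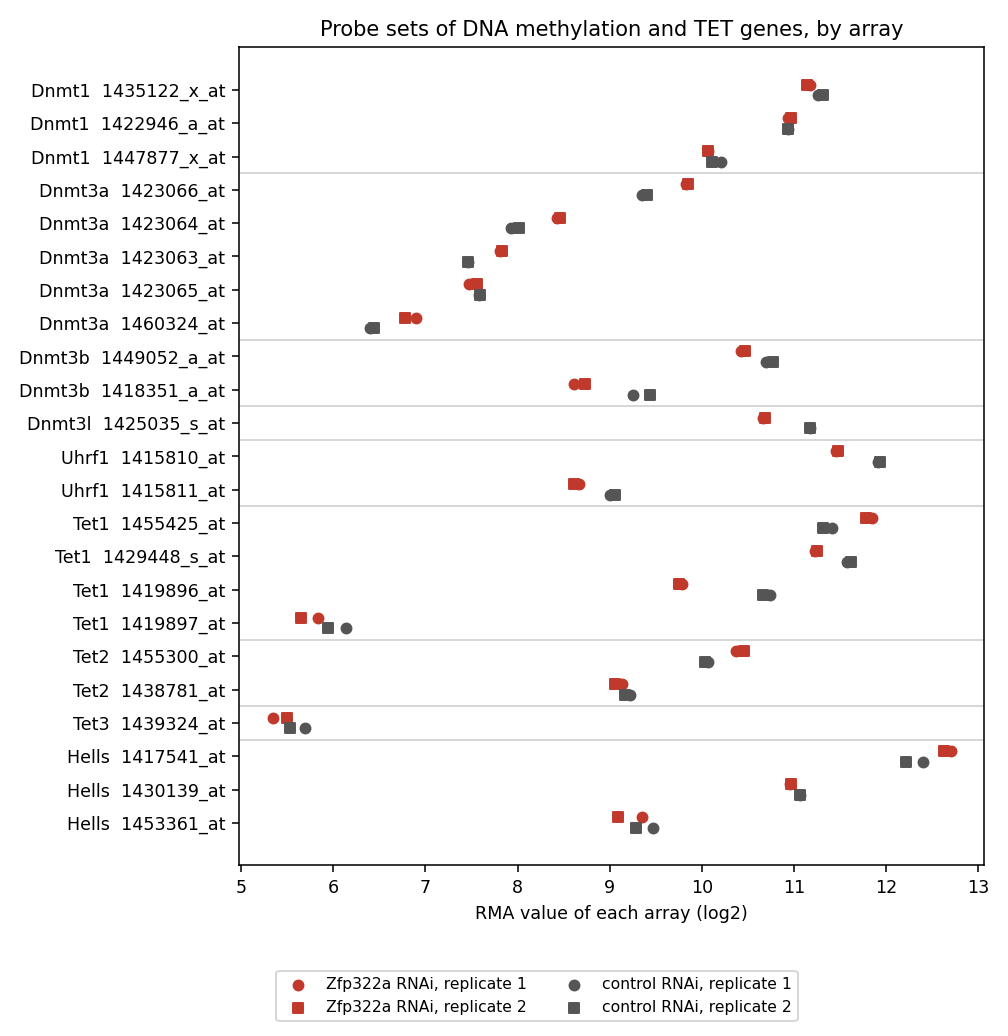
Log2 RMA value (x axis) of each array for the 23 probe sets (rows, grouped by gene, brightest first). Red symbols are Zfp322a RNAi arrays and grey symbols control RNAi arrays, with circles for replicate 1 and squares for replicate 2. Dnmt3a probe sets lie to the right in Zfp322a RNAi except 1423065_at, Dnmt3b, Dnmt3l and Uhrf1 lie to the left, and Tet1 lies on both sides.

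Among the de novo enzymes, Dnmt3a rose. Its brightest probe set, 1423066_at, read 9.83 and 9.85 in Zfp322a RNAi cells, against 9.35 and 9.40 in control RNAi cells. Both knock-down arrays lay above both control arrays, and the change was 0.47 ± 0.08 (1.38-fold, adjusted p = 0.00986 with limma). Another 3 probe sets of the gene rose by similar amounts. Probe set 1423064_at read 8.43 and 8.46 in Zfp322a RNAi, against 7.93 and 8.02 in control RNAi (change 0.47). Probe set 1423063_at read 7.81 and 7.83 in Zfp322a RNAi, against 7.46 and 7.46 in control RNAi (change 0.36). Probe set 1460324_at read 6.90 and 6.78 in Zfp322a RNAi, against 6.40 and 6.44 in control RNAi (change 0.42). These 3 had adjusted p-values of 0.0109 to 0.0211 in limma. The remaining probe set, 1423065_at, did not follow, at 7.47 and 7.56 in Zfp322a RNAi and 7.58 and 7.59 in control RNAi (change -0.07 ± 0.08, adjusted p = 0.600 with limma). All 5 probe sets of Dnmt3a are annotated to 1 source sequence, so that they are not independent views of the gene.

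Dnmt3b moved the other way. Probe set 1418351_a_at read 8.61 and 8.73 in Zfp322a RNAi cells, against 9.25 and 9.44 in control RNAi cells. Zfp322a RNAi left 62.6% (change -0.67 ± 0.10, with an adjusted p of 0.00689 in limma), and this was one of the 2 probe sets past 1.5-fold. The brighter probe set 1449052_a_at read 10.43 and 10.47 in Zfp322a RNAi, against 10.70 and 10.77 in control RNAi, which left 82.1% (change -0.28 ± 0.08). Its groups did not overlap, but its adjusted p of 0.0504 over all probe sets lay just outside the threshold, and over the 18193 genes it lay inside (0.0294, limma). Both probe sets carry the suffix _a_at, which marks probes shared by alternative transcripts of a gene, and both are annotated to the same transcript. Dnmt3l, the cofactor gene, fell as well. Its single probe set read 10.66 and 10.69 in Zfp322a RNAi, against 11.17 on both control RNAi arrays, or 71.0% of control (change -0.50 ± 0.07, adjusted p = 0.00767 with limma). That probe set, 1425035_s_at, has the suffix _s_at, which marks probes that can match transcripts of other genes.

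Of the genes that copy methylation after replication, Uhrf1 passed the test and Dnmt1 did not, and their changes were not compared with each other. Uhrf1 fell on both probe sets. Probe set 1415810_at read 11.46 and 11.48 in Zfp322a RNAi cells, against 11.91 and 11.93 in control RNAi cells, which left 73.2% (change -0.45 ± 0.07, adjusted p = 0.0104 with limma). Probe set 1415811_at read 8.67 and 8.61 in Zfp322a RNAi, against 9.0 and 9.06 in control RNAi (change -0.39 ± 0.08, adjusted p = 0.0189 with limma). The spread between replicates was under 0.10 on the log2 scale in each case, far below the distance between the groups. For Dnmt1, the maintenance enzyme itself, no probe set passed the test. Its brightest probe set, 1435122_x_at (a suffix that marks probes open to cross-hybridization), read 11.17 and 11.14 in Zfp322a RNAi and 11.26 and 11.31 in control RNAi (change -0.13, 95% interval from -0.32 to 0.06). The probe set annotated to a RefSeq transcript, 1422946_a_at, read 10.93 and 10.97 in Zfp322a RNAi and 10.93 on both control RNAi arrays (change 0.02, 95% interval from -0.16 to 0.20). The dimmest, 1447877_x_at, changed by -0.09. The intervals of these 3 probe sets end at -0.32 on the lower side and 0.20 on the upper side.

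Hells gave a mixed reading. The brightest of its 3 probe sets, 1417541_at, read 12.70 and 12.63 in Zfp322a RNAi cells, against 12.40 and 12.22 in control RNAi cells. The groups did not overlap and the change of 0.35 ± 0.09 passed the test (1.28-fold, adjusted p = 0.0441 with limma). The other probe sets did not pass. Probe set 1430139_at read 10.96 and 10.97 in Zfp322a RNAi and 11.07 on both control RNAi arrays (change -0.10), and 1453361_at read 9.35 and 9.09 in Zfp322a RNAi and 9.47 and 9.29 in control RNAi (change -0.16). The last of these has overlapping groups, and each of the 3 probe sets is annotated to a different source sequence.

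**Figure D2:**
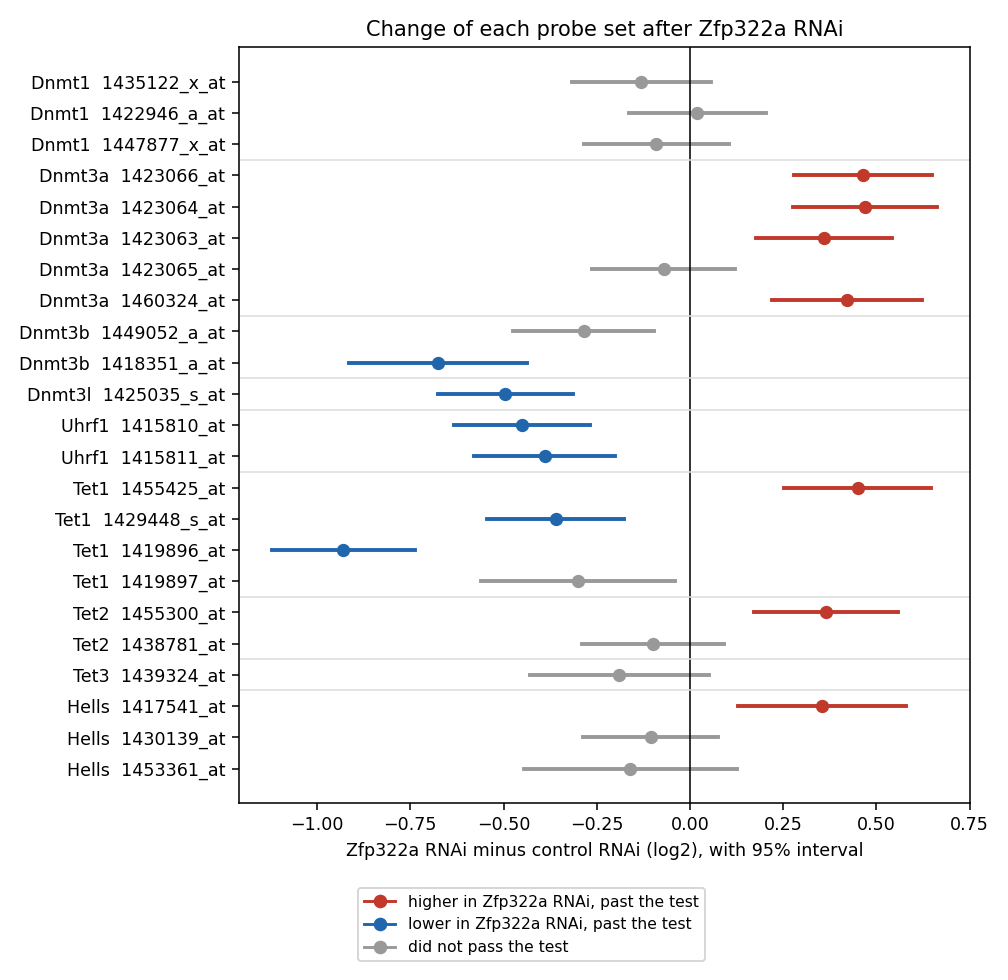
Log2 change (x axis, Zfp322a RNAi minus control RNAi) of each probe set (rows) with its 95% interval from limma. Red marks 7 probe sets that were higher past the test, blue 6 that were lower and grey 10 that did not pass, from 0.47 for Dnmt3a to -0.93 for a probe set of Tet1.

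Among the TET genes, the probe sets of Tet1 pointed in opposite directions. The brightest, 1455425_at, read 11.85 and 11.78 in Zfp322a RNAi cells, against 11.41 and 11.32 in control RNAi cells (change 0.45 ± 0.08, 1.37-fold, adjusted p = 0.0135 with limma). Close to it in brightness, 1429448_s_at read 11.23 and 11.25 in Zfp322a RNAi, against 11.58 and 11.62 in control RNAi (change -0.36 ± 0.08, adjusted p = 0.0219 with limma). Both sets of arrays were thus clear of each other, once upward and once downward. The suffix of 1429448_s_at marks probes that can match transcripts of other genes. Another probe set, 1419896_at, fell furthest of all 23. It read 9.79 and 9.75 in Zfp322a RNAi, against 10.74 and 10.66 in control RNAi, or 52.5% of control (change -0.93 ± 0.08, adjusted p = 0.00175 with limma). The dimmest, 1419897_at, which shares its source sequence with 1419896_at, read 5.83 and 5.65 in Zfp322a RNAi and 6.14 and 5.94 in control RNAi, levels near the array medians (change -0.30 ± 0.11, adjusted p = 0.108 with limma). The 4 probe sets of Tet1 are annotated to 3 source sequences. Where these lie along the gene (chromosome 10, 62804570 to 62887469 in GRCm38.p6) and which transcripts they detect was not analysed here, so that no single change can be given for Tet1 mRNA. Summarised by the mean of its probe sets, Tet1 had a change of -0.28, and by their median one of -0.53, both past the test (limma over all genes).

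Tet2 rose on its brighter probe set only. Probe set 1455300_at read 10.37 and 10.46 in Zfp322a RNAi cells, against 10.07 and 10.03 in control RNAi cells (change 0.37 ± 0.08, 1.29-fold, adjusted p = 0.0248 with limma). Probe set 1438781_at read 9.13 and 9.06 in Zfp322a RNAi and 9.22 and 9.17 in control RNAi (change -0.10 ± 0.08, adjusted p = 0.442 with limma). Tet3, the TET enzyme known from the oocyte and zygote, was dim. Its single probe set read 5.34 and 5.50 in Zfp322a RNAi and 5.69 and 5.53 in control RNAi, all under the array medians (change -0.19 ± 0.10, adjusted p = 0.246 with limma).

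Whether the probe sets of a gene differ in their change was tested directly. Within each array the value of every further probe set was set against the brightest one of its gene, and the difference was compared between Zfp322a RNAi and control RNAi with limma over all 16752 such pairs. Of the 14 pairs of these genes 7 passed an adjusted p of 0.05, where 17.5% of pairs over all genes passed. Pairs of a gene share its brightest probe set, as the 3 pairs of Tet1 and the 2 of Hells do, and are not separate observations. The disagreement within Tet1 was known from these arrays before the genes were named. Its 3 pairs are among the 7, so that the count is a description and not a test. The largest difference was within Tet1, where 1419896_at minus 1455425_at gave -1.38 ± 0.10 (adjusted p = 0.00225 with limma), followed by 1429448_s_at at -0.81 ± 0.11 and 1419897_at at -0.75 ± 0.11 against the same probe set (adjusted p between 0.0057 and 0.00677 with limma). The other calls were for 1423065_at of Dnmt3a (-0.54 ± 0.10), 1438781_at of Tet2 (-0.47 ± 0.11), and 1430139_at and 1453361_at of Hells (-0.46 ± 0.11 and -0.52 ± 0.11), with adjusted p between 0.0164 and 0.0357 in limma. The pair of Dnmt3b differed by -0.39 ± 0.11 and lay just outside the threshold (adjusted p = 0.0513 with limma). It lay inside with repeated quantile normalization (0.0479), with dim probe sets left out (0.0206) and with _s_at and _x_at probe sets left out (0.0472). No difference was detected for the pair of Uhrf1 (0.06, 95% interval from -0.19 to 0.31), for those of Dnmt1, or for the other 3 of Dnmt3a. Pairs in which both probe sets passed the test of change in opposite directions made up 0.913% of all pairs. Of these, 2 belonged to Tet1, the gene whose disagreement was known beforehand, among them the pair with 1429448_s_at.

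**Figure D3:**
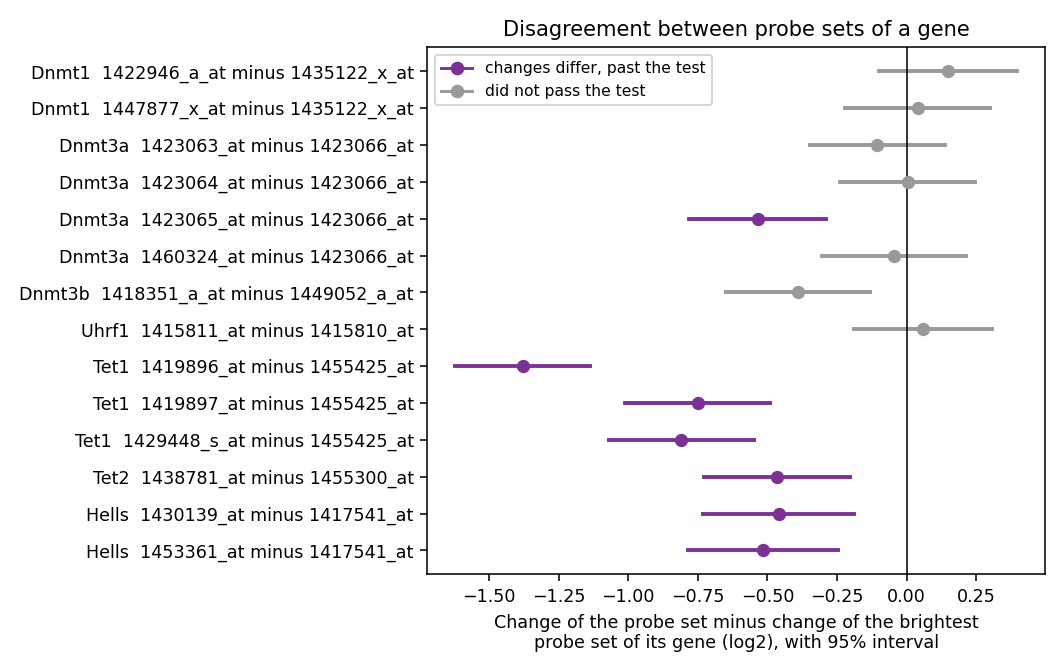
Difference between the change of a probe set and that of the brightest probe set of its gene (x axis, log2, with 95% interval from limma) for the 14 pairs (rows). Purple marks 7 pairs past the test and grey 7 that did not pass, and the 3 pairs of Tet1 lie farthest from 0, at -1.38, -0.81 and -0.75.

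The surrounding genes of the methylation cycle were counted by their brightest probe set, with p-values adjusted over 18193 genes, of which 28.4% were called. Like the member counts, these counts depend on the probe set taken. Of 9 partners of maintenance methylation, 2 were higher, 3 lower and 4 did not pass (limma, median log2 change -0.16, against -0.04 over all genes). Uhrf2, a paralogue of Uhrf1, read 9.62 and 9.56 in Zfp322a RNAi and 9.12 and 9.14 in control RNAi (change 0.46), opposite in sign to Uhrf1, and the histone deacetylase gene Hdac2 was higher too (0.41). Lower were the DNA ligase gene Lig1 (-0.54), Cdca7, whose product works with HELLS (-0.50), and Hdac1 (-0.25). Pcna, the sliding clamp of replication, did not pass (0.18). Because UHRF1 and DNMT1 act at replication, replication genes were counted beside them. Of 25 S-phase and replication genes, 2 were higher (Ccne2 at 1.16 and Slbp at 0.30), 9 were lower, led by Chaf1b (-0.94), Mcm6 (-0.48) and Rrm1 (-0.48), and 14 did not pass (limma, median log2 change -0.18). The part of cell-cycle genes in the fall of Uhrf1 was not tested.

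Genes of the protein families that include readers of methylated DNA went both ways. Of 8 measured, 4 were higher and 2 lower (limma). Zbtb33, which encodes the methyl-CpG binding factor Kaiso, read 9.44 and 9.41 in Zfp322a RNAi and 8.99 and 8.91 in control RNAi (change 0.48), and Mbd2 (0.35) and Mbd6 (0.30) were higher with it. The related zinc finger genes Zbtb4 (-0.47) and Zbtb38 (-0.29) were lower. Of 18 genes that recruit or restrain DNMT and TET proteins, 1 was higher (Zfp281 at 0.23), 4 were lower and 13 did not pass (limma, median log2 change -0.04). Zfp57, which keeps methylation at imprinted regions, fell to 7.53 and 7.65 in Zfp322a RNAi, against 8.13 on both control RNAi arrays (change -0.54), and the histone methyltransferase gene Ehmt2 (-0.46) and the RNA-binding protein gene Lin28a (-0.31) were lower. Prdm14, which represses de novo methyltransferase genes in mES cells, did not pass (9.22 and 9.17 in Zfp322a RNAi, 9.25 and 9.19 in control RNAi), nor did Dppa3, which guards against methylation gain and loss in early embryos (6.25 and 6.39 in Zfp322a RNAi, 6.34 and 6.36 in control RNAi).

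Base excision repair also completes the removal begun by TET and TDG. Of 13 genes of this repair, with other glycosylases and regulators included, 2 were higher and 3 lower (limma). Gadd45a (1.23), a damage-response gene that is also a p53 target, and the uracil glycosylase gene Smug1 (0.44) were higher, and the uracil glycosylase gene Ung (-0.53), Lig3 (-0.41) and Nthl1 (-0.39) were lower. Among 9 genes of methyl donor supply, Mtrr was higher (0.35) and the folate enzyme genes Mthfd1 (-0.33) and Shmt1 (-0.28) and the methyltransferase gene Gnmt (-0.29) were lower, while 5 did not pass.

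A list of 24 germline and other genes for which promoter methylation has been linked to silencing in mouse was counted as well. Of 22 measured, 9 were higher, 4 lower and 9 did not pass (limma, 59.1% called), with a median log2 change of 0.21. The meiotic genes Sycp3, Sycp1 and Hormad1 led the rises. Sycp3 read 11.25 and 11.12 in Zfp322a RNAi cells, against 10.11 and 9.93 in control RNAi cells (change 1.17 ± 0.09, adjusted p = 0.0012 with limma). Sycp1 rose by 0.89 and Hormad1 by 0.85. The piRNA helicase gene Mov10l1 fell furthest, at 7.52 and 7.51 in Zfp322a RNAi and 8.40 and 8.63 in control RNAi (change -1.0 ± 0.09, adjusted p = 0.00162 with limma), followed by the X-linked homeobox gene Rhox5 (-0.56) and Dpep3 (-0.46). The methylation of these promoters was not measured, and 5 of the 22 genes lay under the median level of all probe sets. Dpep3 was one of these (4.53 and 4.59 in Zfp322a RNAi, 4.85 and 5.18 in control RNAi). Others were bright in control RNAi cells, such as Hspb1 (13.34 and 13.46) and Dazl (11.54 and 11.44), so that the list as a whole was not silent there.

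**Figure D4:**
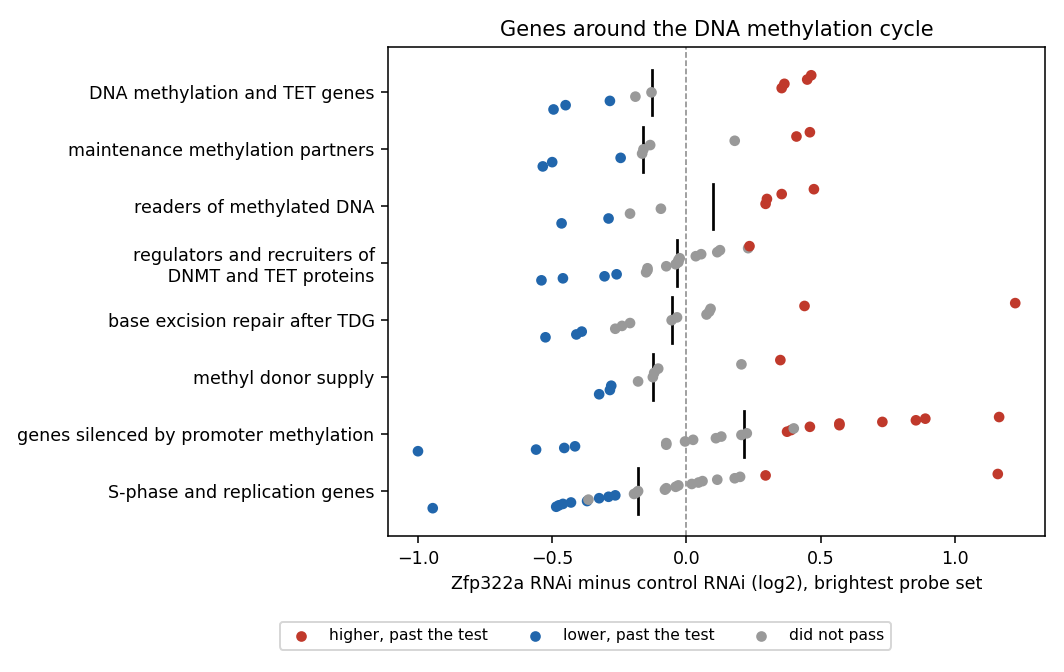
Log2 change (x axis, Zfp322a RNAi minus control RNAi, brightest probe set) of each gene (points) in the 9 measured writer and eraser genes (top row) and in 7 surrounding lists. Red and blue points passed limma's adjusted p over all genes, grey points did not, and black bars are list medians. These run from -0.18 for S-phase and replication genes to 0.21 for the list labelled genes silenced by promoter methylation. That list holds genes that were bright in control RNAi cells.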

How the data were processed

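Total RNA of 2 Zfp322a RNAi and 2 control RNAi samples of E14 cells was hybridised to Affymetrix GeneChip mouse arrays, 1 array per sample. The deposited values are log2 levels that the authors made with RMA (background correction, quantile normalization across arrays, 1 summary value per probe set; version not given in the sources used here). A change of all genes in 1 direction would not appear in such values, and their number limits the precision. They range from 2.62 to 14.6, were given to 2 decimals and were used as deposited. The labels and the methods give 3 days of puromycin selection for hairpins, but the array section of the methods gives a longer one, and the value of the labels is used here.

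Groups come from the sample titles. Of 45037 probe sets, 34945 had 1 gene symbol, 932 several and 9160 none, and only the first were named, with symbols updated through the RefSeq table of GRCm38.p6 (34741 matched). For the 18193 genes, the probe set of highest mean over the 4 arrays was taken. Promoter windows of all 10 genes were found in the RefSeq table of GRCm38.p6.

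Zfp322a RNAi was compared with control RNAi with lmFit and eBayes of limma 3.58.1 (R 4.3.3) in a model of group alone (2 residual degrees of freedom, two-sided, Benjamini-Hochberg adjustment, threshold 0.05), over all probe sets, over all genes, and over all 16752 within-gene differences of probe sets. With 2 arrays against 2, exact permutation could give no p under 0.333 for a single gene. The procedure was run on simulated data with independent noise, in which 200 of 45037 probe sets were changed. On the arrays 9040 were called, and the simulation held no effect shared by replicates, so that it does not test the calls given here. Members and lists were chosen with earlier results of these arrays known. Named are all members, up to 3 genes that rose and 3 that fell most in each list among called genes whose arrays do not overlap, and Prdm14, Dppa3, Cdca7 and Pcna; marker genes are named as examples. Alternatives were array centring, repeated quantile normalization, a filter on dim probe sets, a variance trend, probe sets with the suffix _s_at or _x_at left out, other gene summaries, a replicate block, the 1.5-fold rule and leaving out each array.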

Additional observations from a re-analysis of the deposited data

How the results depend on the processing

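The calls rest on 2 arrays per group. Without any 1 array, 0 probe sets passed an adjusted p of 0.05 with limma over all probe sets (lowest adjusted p 0.110 to 0.138), while 12 to 14 of the 23 member probe sets and 23.5% to 25.6% of all probe sets had an unadjusted p under 0.05. The counts of called member probe sets, member genes, differing pairs and surrounding genes were then 0 (lowest) to 0 (highest), and the change of Zfp322a lay between -1.67 and -1.26. No called member probe set changed direction without 1 array. The replicate number as a block leaves 1 residual degree of freedom. With it, 0 member probe sets, 4 member genes (2 higher, 2 lower), 0 differing pairs and 26 of 103 surrounding genes passed. Without the block these counts were 13, 7, 7 and 49. The shares of all probe sets, genes and pairs that passed with the block were not computed, so that the member counts cannot be set against them. The adjusted p of Zfp322a was then 0.0523 at a change of -1.47, and 13 member probe sets that had passed lay between 0.0513 and 0.0868. Samples share only a number here, and their deviations from the group means correlated at 0.06. At the 1.5-fold rule 2 member probe sets, 0 member genes and 3 pairs passed, where 7.31% of all probe sets did. The shares of all genes and pairs at this rule were not computed.

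Among the member genes, the gene summary changed Tet1, Hells and Tet2. With the mean of all probe sets Tet1 was lower (-0.28, adjusted p = 0.0266 with limma) and with their median as well (-0.53, adjusted p = 0.00375 with limma), while Hells lay at 0.03 and -0.10 and Tet2 at 0.13 under both, none of them past the test. Dnmt1 lay at 0.02 with the median and after removing the _s_at and _x_at probe sets, a setting that also removes Dnmt3l. Uncalled differences between probe sets turned in sign. That of 1447877_x_at of Dnmt1 was -0.0062 with repeated quantile normalization and -0.035 to 0.115 without 1 array, and that of 1460324_at of Dnmt3a was 0.035 with repeated quantile normalization and -0.115 to 0.025 without 1 array. That of 1423064_at of Dnmt3a was -0.015 to 0.025 without 1 array. The brighter probe set of Dnmt3b passed with repeated quantile normalization, with dim probe sets left out and with a variance trend (adjusted p between 0.00251 and 0.0316 with limma). Array centring, repeated quantile normalization, the filter, the trend and the removal of _s_at and _x_at probe sets left 11 to 14 member probe sets called. The shares of all probe sets called under these settings were not computed.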

Other observations

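Tdg, which encodes the glycosylase that removes oxidised methylcytosine, could not be assigned a probe set of its own. The 3 probe sets that carry its symbol together with those of its pseudogenes read between 10.2 and 11.1 on Zfp322a RNAi arrays and between 10.1 and 11.0 on control RNAi arrays. Their changes were 0.01, 0.11 and 0.12 on the log2 scale, and none passed the test (limma over all probe sets, adjusted p between 0.372 and 0.950). These values are the sum of whatever the gene and its pseudogenes contribute and are not given as the level of Tdg.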
